A study of Mus musculus with 3 samples.

Results

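The integrin and laminin genes were examined in the open chromatin of hair follicle stem cells (HFSCs), which sit in the bulge of the follicle. They were taken as the protein-coding genes whose symbols begin with Itga or Itgb followed by a number or letter name, or with Lama, Lamb or Lamc followed by a digit. This gave 38 genes of 21851 in the GRCm38 annotation, with 18 integrin alpha chains, 9 integrin beta chains and 11 laminin chains. The assay was Omni-ATAC-seq, where Tn5 transposase inserts sequencing adapters into DNA that is open. The cells were sorted as CD34+CD49f+Sca-1- from dorsal skin of mice aged 6 months whose follicles were at rest (telogen). Wild-type mice gave 1 library (Msx2-WT). Mice with a knockout of the homeobox transcription factor Msx2 gave 2 (Msx2-KO replicates 1 and 2, written KO1 and KO2 below). Per the study's methods, wild-type controls were C57BL/6J mice, and the targeted allele carries a neo cassette placed ahead of the second Msx2 exon. Sex, the strain of the Msx2-KO mice and the number of animals per library were not given in the sources used here. CD49f is the protein of Itga6, so the cells were chosen for the product of that gene and its open state is not a finding.

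Integrins are cell surface receptors made of 1 alpha and 1 beta chain, and laminins are trimers of an alpha, a beta and a gamma chain that build the basement membrane. In stratified epithelium, integrin alpha 6 beta 4 (Itga6 and Itgb4) forms the core of the hemidesmosome and binds laminin-332, whose chains include those of Lama3 and Lamb3. Integrin alpha 3 beta 1 binds the same laminin from focal contacts. The collagen-binding integrins pair an alpha chain with beta 1, and the leukocyte integrins with beta 2 or beta 7 serve cells of the blood.

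Peaks with a q-value under 0.01 were used, and a promoter peak was a summit within 1500 bases of a protein-coding start site. The tag number at each summit was recovered from the deposited peak statistics, and tag density is that number over the library's commonest background. The background was between 0.476 and 1.74 tags, which made Msx2-WT 3.65 times as deep as KO1. The fewest tags that passed were 9 in Msx2-WT, 5 in KO1 and 6 in KO2, so a gene without a peak was not detectable at this depth rather than closed. With 1 Msx2-WT library, and with genotype and the batch date of the labels coinciding, no test between genotypes was run, and genotype and batch cannot be told apart. The promoter of the targeted gene Msx2 had a peak of 15 tags in Msx2-WT, 9 in KO1 and 16 in KO2, so the peak lists do not check the labels. Markers of HFSCs had promoter peaks at 5 of 7 genes in Msx2-WT, 4 in KO1 and 6 in KO2. Lhx2, Sox9 and Tcf7l1 had one in all 3 libraries. Krt15 and the sort marker Cd34 had one in Msx2-WT and KO2, and Nfatc1 had none in any. Lgr5 had one in KO1 and KO2 alone, a pattern of 2.32% of all genes, with 6 and 19 tags. Its −log10 q values were 2.19 in KO1 and 10.5 in KO2. Of 3 basal keratinocyte markers, Krt5 and Krt14 had one in all 3 libraries, and Trp63 had one in Msx2-WT and KO2. The leukocyte list had none of 8 in any library, and the endothelial list had at most 1 of 4. Fibroblast markers had between 1 and 3 of 5. Of 4 melanocyte markers, Pmel and Dct had one in all 3 libraries, and Tyr and Mlana had none in any. Of 5 suprabasal and epidermal markers, Krt10, Ly6a and Ivl had a promoter peak in Msx2-WT alone, with 10, 12 and 15 tags, although Ly6a encodes Sca-1, which the sort selected against. The part of such cells in the results was not tested.

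A promoter peak was found at 14 of the 38 genes in Msx2-WT (36.8%, 95% Wilson interval 23.4 to 52.7), against 47.1% of all genes. It was found at 12 in KO1 (31.6%, 19.1 to 47.5), against 37.9%, and at 20 in KO2 (52.6%, 37.3 to 67.5), against 53.7%. In all 3 libraries the share of integrin and laminin genes lay below that of all genes, but each interval held the share of all genes. Laminin genes had the higher share, with 6, 5 and 8 of 11 in the order Msx2-WT, KO1 and KO2, and integrin genes had 8, 7 and 12 of 27. This order of libraries is kept where 3 values follow each other.

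Itga6 and Itgb4 of the hemidesmosome integrin and Lama3 and Lamb3 of its laminin-332 ligand had a promoter peak in all 3 libraries, whereas the 8 leukocyte integrins had none in any. In KO1 the peaks of Itga6 and Itgb4 had −log10 q values of 3.36 and 3.59, so with a −log10 q of at least 5 neither was open in all 3 libraries. In all, 11 genes had a promoter peak in all 3 libraries, or 28.9% against 35.2% of all genes. Among them were Itga3, Itga6, Itga8, Itgb1, Itgb4, Itgb8, Lama3, Lama5, Lamb3 and Lamc1. The promoters of 18 genes had no peak in any library, or 47.4% against 43.8% of all genes. Between these lay 3 genes with a peak in Msx2-WT and KO2 (Itga2, Itgav and Lama4), or 7.89% against 9.64% of all genes. A peak in KO2 alone was found at 5 (Itga1, Itga7, Itgb6, Lama1 and Lamb1), or 13.2% against 6.5%. Both patterns leave out KO1, the shallowest library, and the second also leaves out Msx2-WT, the deepest but with the highest tag limit. Scaled by depth and by the median ratio of all promoters, Itga1, Itga7 and Lama1 correspond to 8.64, 6.72 and 8.64 tags in Msx2-WT. These lie under the 9 that could pass there, while Lamb1 and Itgb6 correspond to 9.60 and 12.5. In KO1, Itga1, Itga7, Lama1 and Lamb1 correspond to 4.32, 3.36, 4.32 and 4.80 tags, under its limit of 5, and Itgb6 to 6.24.

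**Figure D1:**
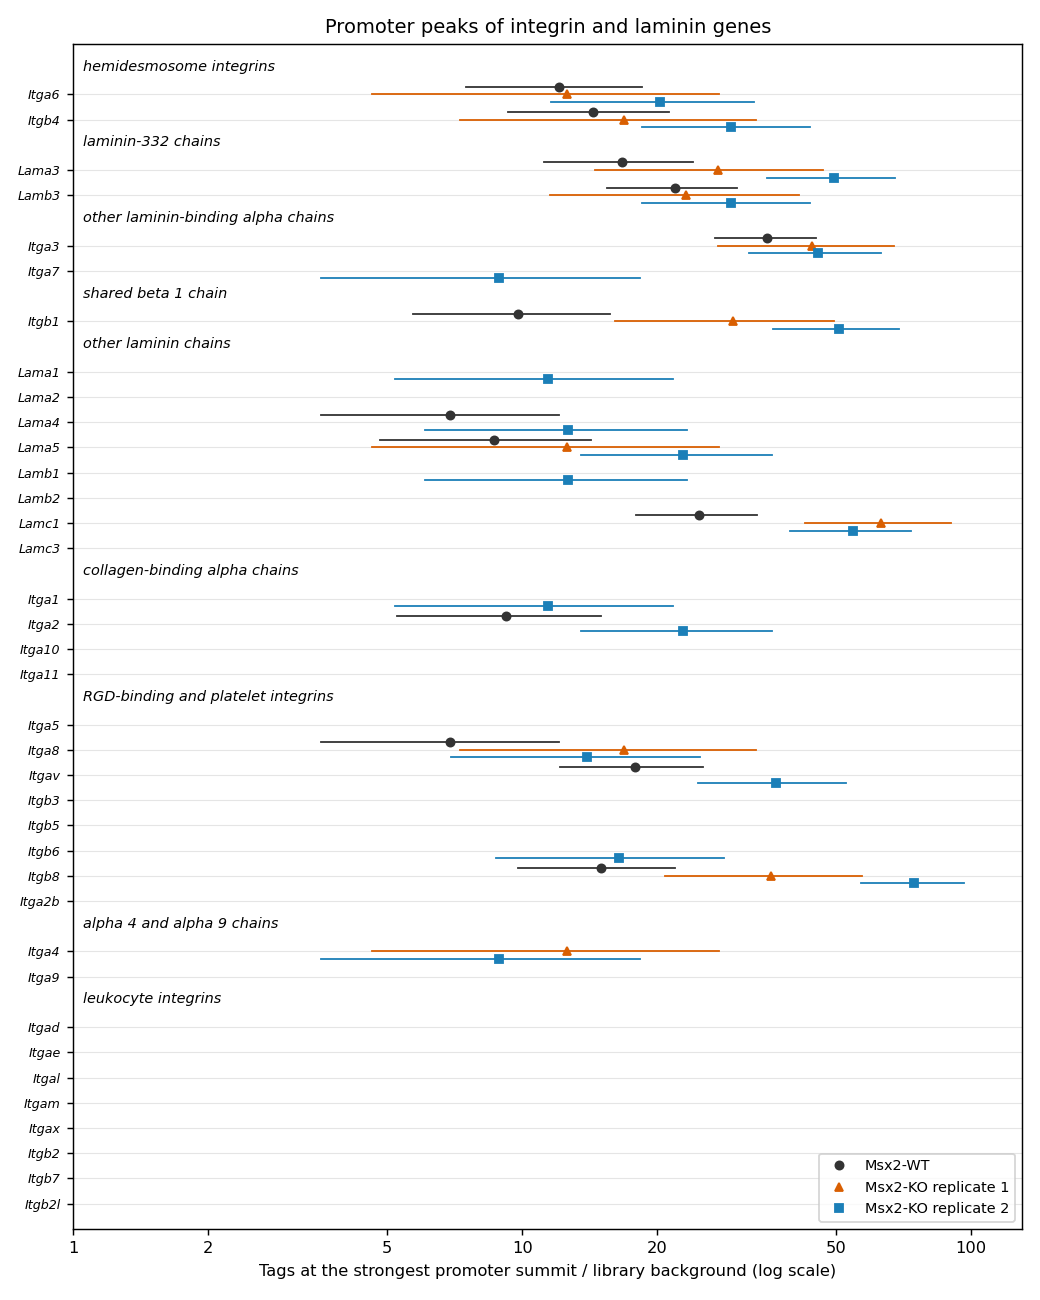
Tag density at the strongest promoter summit of 37 of the 38 genes (horizontal, log scale, tags over the library's background) for Msx2-WT (circles), KO1 (triangles) and KO2 (squares), with lines for the 95% Poisson interval of the tag number. Rows without a symbol had no promoter peak in that library, as for all 8 leukocyte integrins, while both hemidesmosome integrins, Lama3 and Lamb3 carry all 3 symbols.

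Itga6, whose chain pairs with beta 4 in hemidesmosomes, had 21 tags at its promoter in Msx2-WT, 6 in KO1 and 16 in KO2. Over the background these were densities of 12.1, 12.6 and 20.2. Itgb4, which encodes the beta 4 chain with the long cytoplasmic tail that reaches plectin, had 25, 8 and 23 tags, or densities of 14.4, 16.8 and 29.1. The densities of both genes were lowest in Msx2-WT, as at the median promoter, where they were 1.83 and 2.29 times as high in KO1 and KO2, and the Poisson intervals of the libraries overlapped. The Msx2-WT summit of Itga6 lay 46 bases upstream of its first coding start. That of Itgb4 lay 48 bases upstream of its nearest start, which is 0.27 kb downstream of the first. The KO2 summit of Itgb4 was 8 bases upstream of that same start, and the KO1 summit was at the first start. The start of Itgb4 that lies 3077 bases downstream of the first had no peak past the limit.

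In both Lama3 and Lamb3 the most accessible start site was not the first. Lama3, the alpha 3 chain, had its strongest peak at an internal start 170380 bases downstream of the first, with 29, 13 and 39 tags. Its first start had 11 tags in Msx2-WT and 9 in KO2, and a peak of 4 tags short of the limit in KO1. Lamb3, the beta 3 chain, had 38, 11 and 23 tags at the downstream of its annotated starts. Nothing was listed at the first start, 94268 bases upstream. In all 3 libraries the internal start of Lama3 and the downstream start of Lamb3 were thus the more accessible of each pair.

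Itga3, the alpha chain of the other laminin-332 receptor, had the highest promoter density of any integrin gene in Msx2-WT. Its strongest summit had 61, 21 and 36 tags, or densities of 35.1, 44.1 and 45.6. It lay 1199 bases upstream of an internal start in Msx2-WT, in intron 2 of the longest transcript, whose own start is 7603 bases upstream of the internal one. That first start had 20 tags in Msx2-WT, 16 in KO2 and nothing listed in KO1. Itga7, the alpha chain of the muscle laminin receptor, had 7 tags in KO2 and nothing listed in the others. Itgb1, the beta chain shared by Itga3, Itga7 and the collagen-binding chains, had 17, 14 and 40 tags.

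The reference bases at the Msx2-WT summit are printed for Itga3 and Itgb1, the chains of one receptor, because both promoters had a peak in all 3 libraries while their sequences differ. Windows of 151 bases were read from the GRCm38 genome of RefSeq, centred on the summit and on the strand of the gene. Annotated untranslated exon bases are left out of the print, which leaves 80 bases for Itgb1 and all 151 for Itga3. Written 5′ to 3′, capitals mark matches on either strand to the AP-1 motif TGANTCA, the GC box GGGCGG and the TEAD motif GGAATG.
Itga3, chr11:95070322-95070472: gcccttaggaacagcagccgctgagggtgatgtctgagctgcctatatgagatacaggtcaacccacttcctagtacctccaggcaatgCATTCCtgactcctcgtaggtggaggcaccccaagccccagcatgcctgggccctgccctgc
Itgb1, chr8:128685574-128685653: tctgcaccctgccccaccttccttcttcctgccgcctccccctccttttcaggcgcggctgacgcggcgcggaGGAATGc

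Of 14 whole windows in Msx2-WT, 7 held the GC box, against 55.4% of the windows at all promoter peaks, and these included Itgb4 and Itgb1. The GC box was at 4 of 12 in KO1, against 51.4%, and at 8 of 20 in KO2, against 50.2%. AP-1 was found at 2 of 14, Lama3 among them, against 2.72% of all promoter peaks. It was at 2 of 12 in KO1, against 2.11%, and at 4 of 20 in KO2, against 2.43%. Lama3 also held AP-1 in the windows of both Msx2-KO libraries. TEAD letters were found at 4 of 14 (Itga3, Itgb1, Itgb4 and Lamb3), against 5.44% of all, but at 1 of 12 in KO1, against 5.17%, and at 4 of 20 in KO2, against 5.20%. In total 10 motifs were searched and none was tested, and a match is a description of letters and not of a bound factor. The TATA box TATAAA was at none of the 14, against 1.98% of all promoter peaks. The CCAAT box was also at none of the 14, against 31.2% of all. It was at 0 of 12 in KO1, against 28.7%, and at 2 of 20 in KO2 (Itga8 and Lamb1), against 26.1%.

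The CpG content at the start sites was higher in genes with a promoter peak, as over all genes. Within 250 bases of the first coding start, the ratio of observed to expected CpG had a median of 0.718 in the 11 genes with a peak in all 3 libraries and of 0.346 in the 18 genes with none. Over all genes these medians were 0.821 and 0.230. Lamb3 stood lowest among the 11 at 0.152, measured at the upstream start that had no peak, and Itgb1 highest at 0.915. Itga9 at 0.882, Itgb5 at 0.848 and Itgb3 at 0.795 had CpG-rich starts and no promoter peak past the limit.

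The collagen-binding alpha chains were mostly without promoter peaks. Itga2, whose chain pairs with beta 1 to bind fibrillar collagen, had 16 tags in Msx2-WT and 18 in KO2, and 3 tags short of the limit in KO1. Itga1 had 9 tags in KO2 alone, where the start of the gene model Gm49395 also lay within the window. Itga10 and Itga11 had nothing listed at their promoters in any library. The group thus had 1, 0 and 2 of 4 genes with a peak.

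All 8 leukocyte integrin genes, Itgal, Itgam, Itgax, Itgad, Itgae, Itgb2, Itgb2l and Itgb7, were without a promoter peak in all 3 libraries. Below the limit, only Itgb2l was listed, with 3 tags in KO2. For 0 of 8 genes the Wilson interval reached 32.4%. The promoters of the leukocyte markers were likewise without peaks at 0 of 8.

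Among the integrins that bind RGD motifs or serve platelets, Itgb8, the partner of alpha v in activating latent TGF-beta, had 26, 17 and 59 tags. Itga8 had 12, 8 and 11. Itgav, the alpha v chain, had 31 tags in Msx2-WT and 29 in KO2, and a peak of 7 tags short of the limit in KO1. Scaled by depth and by the median ratio of all promoters, 31 tags in Msx2-WT correspond to 15.5 in KO1. The fewest tags that passed anywhere in KO1 were 5, but the 7 tags at Itgav did not pass. Itga5, Itgb3, Itgb5 and Itga2b had no promoter peak past the limit.

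Of the other laminin chains, Lamc1, the gamma 1 chain of most laminins, had the most accessible promoter, with 43, 30 and 43 tags or densities of 24.7, 63.0 and 54.4. Lama5, the alpha chain of laminin-511, had 15, 6 and 18 tags. Lama4 had 12 tags in Msx2-WT and 10 in KO2, and 6 short of the limit in KO1. Lama1 and Lamb1 had 9 and 10 tags in KO2 alone. Lama2, Lamb2 and Lamc3 had no promoter peak past the limit in any library.

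Between genotypes, 1 of the 38 genes, or 2.63%, was open at its promoter in KO1 and KO2 but without a peak in Msx2-WT, against 2.32% of all genes. No gene, against 2.11%, had one in Msx2-WT alone. The 1 gene was Itga4, the alpha 4 chain that binds VCAM-1 and fibronectin. It had 6 tags in KO1 and 7 in KO2, with −log10 q values of 2.43 and 2.28, and nothing was listed in Msx2-WT. Scaled to Msx2-WT, these tag numbers correspond to 12.0 and 6.72 tags, of which the second lies under the 9 that could pass there. With a −log10 q of at least 5 Itga4 had no peak in any library, and with lists of equal length it was replaced by Lama5.

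Tag density was compared at the 11 genes with a promoter peak in all 3 libraries, as the ratio of Msx2-KO to Msx2-WT relative to the median ratio over 7696 such genes. None of the 11 lay under 1/2 of the median in both Msx2-KO libraries, where 3.08% of all genes lay. None lay over 2 times the median in both, where 2.42% of all genes lay. The median relative ratio of the 11 was 0.897 in KO1 and 0.960 in KO2. Below the median in both were 4 genes, Itga3, Itga6, Itgb4 and Lamb3, or 36.4% against 38.3% of all genes. With the fold over local background, of these 4 Itga3 alone stayed below the median in both, at 0.924 and 0.770.

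For Lama3, Lamb3 and the receptor chains of laminin-332, ratios lay on both sides of the median. Itga6 had relative ratios of 0.571 (95% interval from counting error 0.189 to 1.46) and 0.731 (0.357 to 1.47) in KO1 and KO2. Those of Itgb4 were 0.640 (0.250 to 1.46) and 0.883 (0.479 to 1.62). Every one of these 4 intervals held 1. With the fold over local background, Itga6 had 0.920 and 1.03 and Itgb4 0.846 and 1.09. Itga3 had 0.689 (0.398 to 1.15) and 0.567 (0.364 to 0.869), and its second interval lay under 1. Lamb3 had 0.579 (0.267 to 1.16) and 0.581 (0.330 to 1.00). Lama3 had 0.897 (0.428 to 1.78) and 1.29 (0.778 to 2.16). With the fold over local background, Lamb3 had 1.08 and 0.980 and Lama3 had 1.22 and 1.21, so the side of the median on which these genes lay depended on the measure of density.

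Itgb1 and Itgb8 had the highest ratios in KO2. In KO1 Itgb1 was also the highest, while Itgb8 lay below Lamc1 at 1.40 and Itga8 at 1.33. Itgb1 had 1.65 (0.752 to 3.55) in KO1 and 2.26 (1.25 to 4.25) in KO2. Itgb8 had 1.31 (0.666 to 2.50) and 2.18 (1.35 to 3.60). In each case only KO2 was past 2 times the median, so neither gene was called. With the fold over local background, Itgb1 had 1.16 in KO1 and 1.64 in KO2. The strongest summit was taken in each library, so a ratio need not compare the same site. That of Itgb8 lay 220 bases downstream of its nearest coding start in Msx2-WT, 548 in KO1 and 518 in KO2. Itga8, Lama5 and Lamc1 lay between 0.80 and 1.40. Duplicate reads were kept, so the intervals are too narrow by an amount that cannot be read from the lists.

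**Figure D2:**
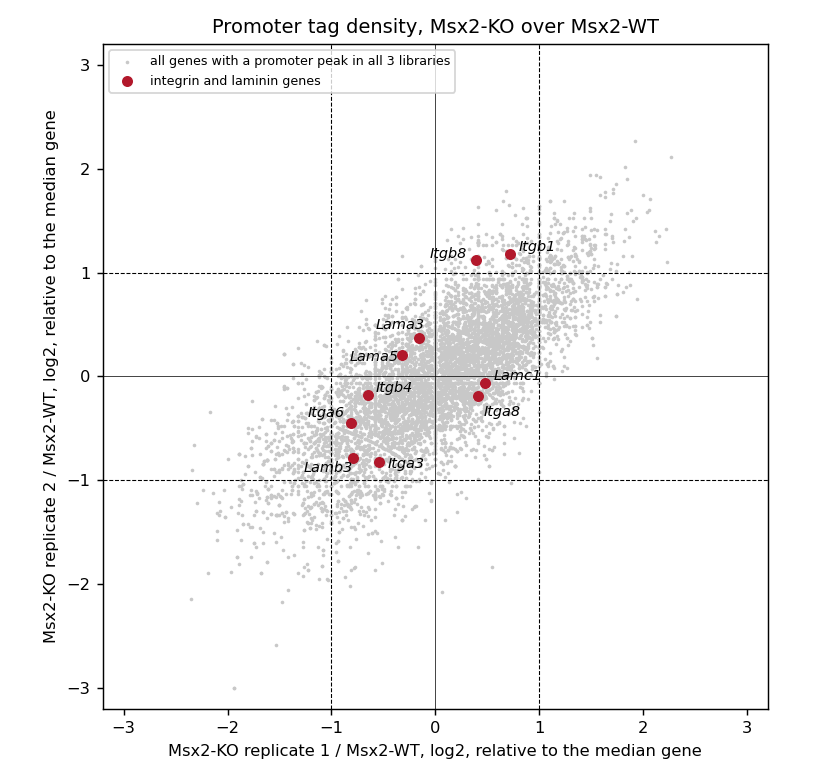
Promoter tag density in Msx2-KO over Msx2-WT for replicate 1 (horizontal) and replicate 2 (vertical), log2 relative to the median gene. Grey points are the 7696 genes with a promoter peak in all 3 libraries, red points 10 of the 11 integrin and laminin genes among them, and dashed lines mark 2 times and 1/2 of the median. No red point lies in the upper right or lower left corner beyond both dashed lines.

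Many of these genes are long, and most of their peaks lay inside the gene body, which was taken as the summits more than 1500 bases from any coding start. There were 60, 36 and 80 such summits in Msx2-WT, KO1 and KO2, in 26, 18 and 27 of the 38 genes. Per 100 kb this was 1.63, 0.980 and 2.18, against 1.00, 0.489 and 1.25 over all genes. The median gene length was 64.1 kb against 17.4 kb. Among genes with a length between 34.1 and 118 kb, the quartiles of the integrin and laminin genes, the rates were 1.96, 1.10 and 2.43 against 1.21, 0.540 and 1.37 for all genes of that length. Genes without a promoter peak also had more, with 1.38, 0.720 and 1.38 per 100 kb against 0.626, 0.291 and 0.747. The rates are descriptions, since peaks in 1 gene are not independent, and whether a peak serves the gene that holds it was not tested.

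By group, the RGD-binding and platelet integrins had 2.70, 1.70 and 3.83 summits per 100 kb. Lama3 had 1.61, 0.803 and 4.01, and Lamb3 had 1.47, 0 and 2.20. The hemidesmosome integrins had 2.05, 0.683 and 3.41, all of them in Itga6, since Itgb4 had no gene body peak in any library. The collagen-binding chains, mostly without promoter peaks, had 1.61, 1.61 and 1.88. The leukocyte integrins had 6 summits in Msx2-WT, none in KO1 and 2 in KO2, or 1.91, 0 and 0.635 per 100 kb.

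**Figure D3:**
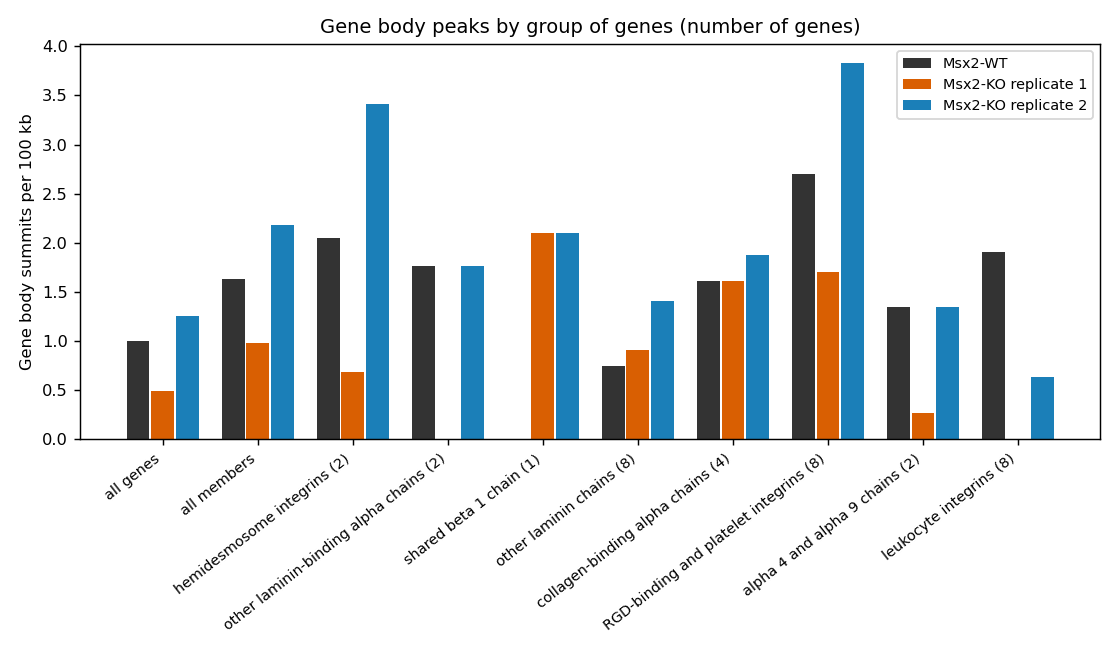
Gene body summits per 100 kb of gene for all genes, for all 38 integrin and laminin genes and for 8 groups of them, with the number of genes in parentheses and 1 bar per library. KO1, the shallowest library, has the lowest bar for all genes at 0.489, and the leukocyte group is the one in which Msx2-WT at 1.91 stands above both Msx2-KO libraries.

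Itgb6, the beta 6 chain of the epithelial receptor alpha v beta 6, had the most gene body regions shared by all 3 libraries, with 4. The strongest lay in intron 10, 82619 bases from the first start, with 40, 29 and 59 tags or densities of 23.0, 60.9 and 74.7. The other shared regions were in intron 7 with 23, 13 and 37 tags and at 2 places in intron 1 with 35, 20 and 27 and with 28, 14 and 32 tags. All 4 were denser than the median shared gene body region, which had 10.4, 21.0 and 24.0. At its promoters, by contrast, Itgb6 had 13 tags in KO2 alone, at an internal start, and no peak past the limit at its first start in any library. The intron 10 region had the most tags of all shared gene body regions of these genes in every library, level with a Lama2 region in KO1. Its window at the Msx2-WT summit is printed for that reason, with the same capitals and on the gene's strand.
Itgb6 intron 10, chr2:60639805-60639955: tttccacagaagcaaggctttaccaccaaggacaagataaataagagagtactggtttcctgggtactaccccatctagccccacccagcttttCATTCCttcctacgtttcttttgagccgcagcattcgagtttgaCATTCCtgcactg

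Lama3 and Itgb5 were among those that followed with 2 shared regions each. In Lama3 they lay in intron 1 with 30, 16 and 24 tags and in intron 40, 178812 bases from the first start, with 22, 11 and 22. Itga6 had 1 shared region, in intron 2 and 19120 bases from its coding start, with 28, 8 and 16 tags. Lamb3 had none shared by all 3, and 23 and 14 tags in intron 12 in Msx2-WT and KO2. Lama3, Lamb3 and Itga6 thus carried intronic peaks beside their promoter peaks, and Itgb4 carried a promoter peak alone.

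**Figure D4:**
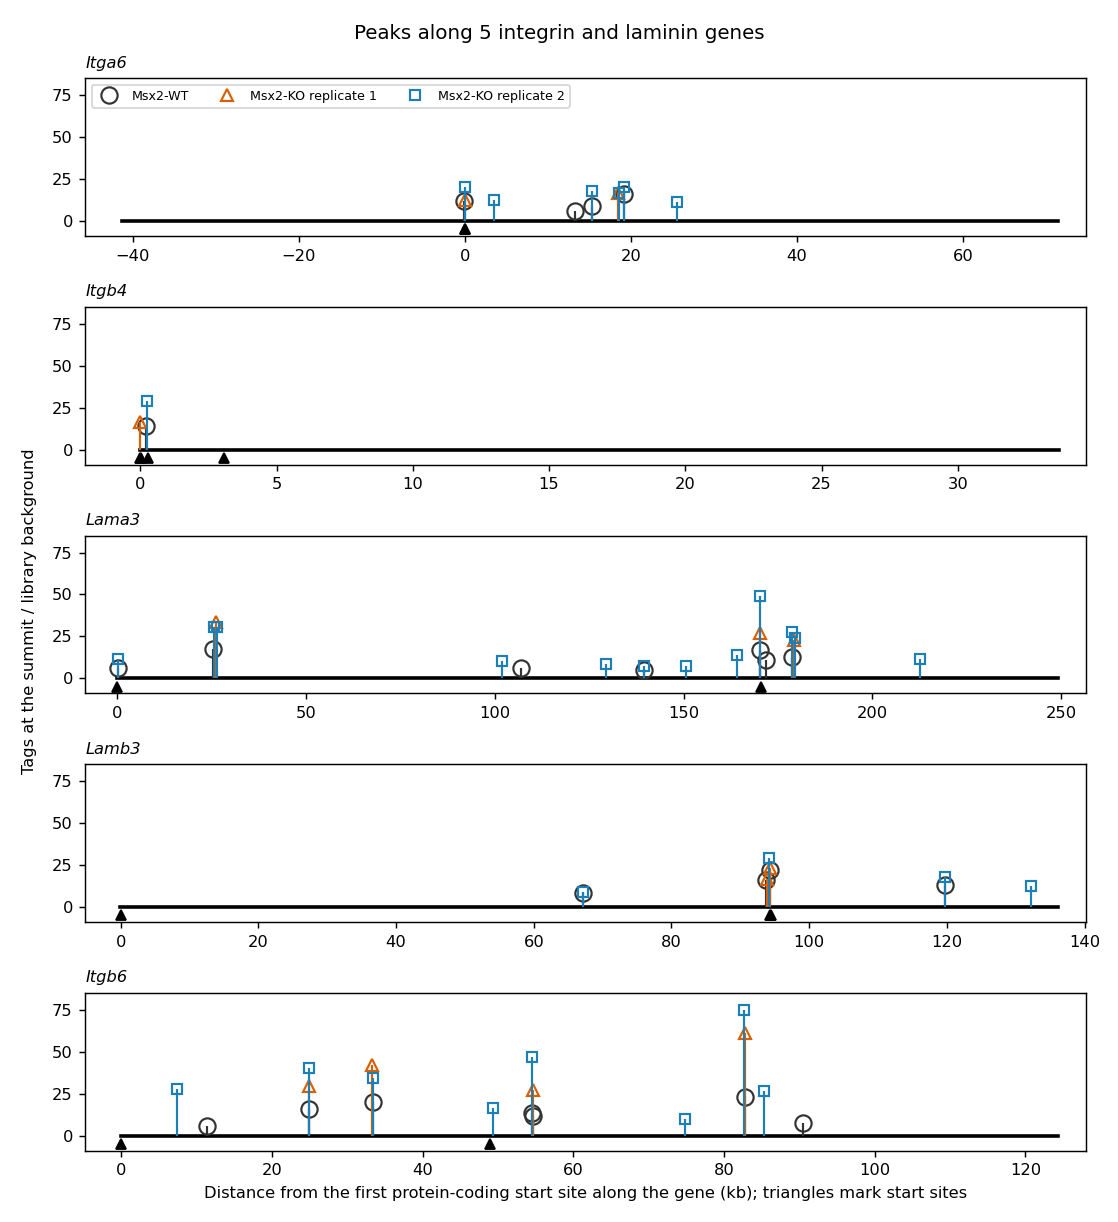
Summits along Itga6, Itgb4, Lama3, Lamb3 and Itgb6, with distance from the first coding start site in kb (horizontal) and tags over the library's background (vertical) for Msx2-WT (circles), KO1 (triangles) and KO2 (squares). Black triangles mark coding start sites and the black line the gene. Lama3 and Lamb3 have their strongest promoter peaks at internal starts. Itgb4 has peaks only within 0.27 kb of its first start, and Itgb6 has its strongest peaks in introns.

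In all, 101 gene body regions belonged to integrin and laminin genes. Of these, 20 had a peak in all 3 libraries, or 19.8% against 16.6% of all gene body regions. Both Msx2-KO libraries without Msx2-WT had 9, or 8.91% against 8.31%, and Msx2-WT alone had 24, or 23.8% against 23.9%. KO2 alone had 32, or 31.7% against 33.1%, and the rest had other combinations. Each of these shares was near that of all gene body regions.

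The 9 regions open in KO1 and KO2 but not past the limit in Msx2-WT lay in Itgb1, Itga9, Lama2, Itgb8, Itga1 and Itga5. Lama2, Itgb8 and Itga1 held 2 each. The strongest were the Lama2 regions in intron 58, with 10 and 16 tags, and in intron 12, with 10 and 15 tags. Both were listed short of the limit in Msx2-WT, with 8 and 6 tags. Of the 24 regions in Msx2-WT alone, the strongest was in intron 11 of Itgad, a leukocyte alpha chain, with 28 tags and nothing listed in either Msx2-KO library. Next came 23 tags in intron 2 of Itga3 and 20 in intron 28 of Itga1, also with nothing listed in either.

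At the 20 shared regions, tag density relative to the median of 2769 shared gene body regions had a median of 1.06 in KO1 and 0.962 in KO2. In both Msx2-KO libraries 1 region of the 20 was over 2 times the median, where 5.89% of all such regions were, and 1 was under 1/2 of it, where 4.8% were. The higher one was in intron 64 of Lama2, the laminin alpha 2 chain of muscle and nerve, near the 3′ end of the gene. It had 23, 29 and 51 tags, with relative ratios of 2.34 (1.31 to 4.24) and 2.22 (1.33 to 3.80). The lower one was in intron 3 of Itgb5, the beta 5 chain that pairs with alpha v. It had 29, 5 and 11 tags, with relative ratios of 0.320 (0.0968 to 0.837) and 0.379 (0.171 to 0.782). With 1 region of 20 each way, the counts were near the shares of all such regions. In both regions the intervals from counting error lay on 1 side of 1 in both Msx2-KO libraries. The regions were picked for these ratios, and KO1 and KO2 were divided by the same Msx2-WT tag number, so the intervals add no separate support. With the fold over local background in place of tags over library background, neither region was past the limit. These windows, at the Msx2-WT summit and on the gene's strand, were chosen for that difference.
Lama2 intron 64, chr10:26982726-26982876: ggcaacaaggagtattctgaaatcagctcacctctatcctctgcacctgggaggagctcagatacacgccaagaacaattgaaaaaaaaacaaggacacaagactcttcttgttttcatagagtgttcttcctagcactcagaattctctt
Itgb5 intron 3, chr16:33872170-33872320: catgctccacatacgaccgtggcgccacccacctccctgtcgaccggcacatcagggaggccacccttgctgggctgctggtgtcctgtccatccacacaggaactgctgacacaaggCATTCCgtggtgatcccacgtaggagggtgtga

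In the windows at gene body summits, the letters TAATTG, a core sequence of MSX homeodomains, were found at 8 of 60 in Msx2-WT, or 13.3% against 4.81% of all gene body summits. In KO1 they were found at 3 of 36, or 8.33% against 7.70%, and in KO2 at 6 of 80, or 7.50% against 7.18%. The other homeodomain letters searched, TAATTA, were found at 3.33%, 8.33% and 6.25%, against 3.43%, 6.54% and 6.83%. AP-1 letters were found at 11.7%, 11.1% and 12.5%, against 12.7%, 9.34% and 11.4%. The share with AP-1 was thus near that of all gene body peaks in every library.

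The partners of these receptors were read from lists. Of 4 hemidesmosome partners, Plec and Dst, the plakins that tie integrin beta 4 to keratin, had promoter peaks in all 3 libraries, Cd151 in Msx2-WT and KO2, and Col17a1 in KO2 alone. Of 13 integrin adaptors and kinases, 11 had a promoter peak in all 3 libraries, or 84.6% against 35.2% of all genes. These included talin 1 (Tln1), kindlin 1 (Fermt1) and focal adhesion kinase (Ptk2). The other two, Tln2 and Fermt3, the kindlin of blood cells, had none in any. Of 12 basement membrane partners, 4, 3 and 8 had a promoter peak. These were 33.3%, 25.0% and 66.7%, against 47.1%, 37.9% and 53.7% of all genes. Npnt, which encodes nephronectin, a ligand of alpha 8 beta 1, had 7 and 20 tags in the Msx2-KO libraries and no peak in Msx2-WT. Agrn, which encodes agrin, had 19 tags in Msx2-WT and no peak in either Msx2-KO library. Of all genes, 2.32% had the pattern of Npnt and 2.11% that of Agrn. The −log10 q values of Npnt were 2.31 in KO1 and 10.3 in KO2, and that of Agrn in Msx2-WT was 4.81. The peaks of Npnt in KO1 and of Agrn in Msx2-WT thus lay under the stricter limit of 5.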

How the data were processed

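Omni-ATAC-seq peak lists of sorted HFSCs were used, 1 per library, grouped by the labels. The authors used Trimmomatic on the reads, BWA-MEM against GRCm38 and MACS2 for the peaks of each library, leaving out mitochondrial reads, keeping duplicates and building no shifting model (the study's methods). The MACS2 version is not given in the sources used here. The authors deposited for each summit a fold over local background, −log10 p and −log10 q values, and a score that was not used. As the lists reach down to a p-value of 0.01, summits with −log10 q above 2.0 were kept: 33654 of 104376 in Msx2-WT, 19450 of 36494 in KO1 and 41091 of 83318 in KO2 (Msx2-KO replicates 1 and 2). In the KO1 and KO2 lists the peak names read cKO, and in KO1 they give another library number than its label. The labels were followed.

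The whole tag number at each summit was solved from the fold and −log10 p, for at least 99.9% of summits per library, and checked on simulated data. Density was tags over the commonest background. Peaks sharing at least 1 base were merged into regions. Start sites and genes came from the basic GENCODE M21 annotation, and bases from the GRCm38 genome. Levels were called different at 2 times the median ratio in both KO1 and KO2, and no p-value was computed. Whether libraries came from separate animals is not stated. Intervals cover counting error only. The genes and lists were chosen with earlier results of these data known. Given in full were Itga6, Itgb4, Lama3, Lamb3, Itga3 and Itgb1, genes whose promoter state or density set Msx2-WT apart from KO1 and KO2, and the genes with most shared gene body regions. A gene and a sequence that these rules select are not reported here. Other genes were named to account for each group, and the gene body density comparison was added after the data were seen. Alternatives were stricter and looser limits, lists of equal length, windows of 500 and 3000 bases, peaks placed by overlap, the fold over local background, and leaving out KO1 or KO2. Software was Python 3.11.15 with scipy 1.17.1, pandas 2.3.3, numpy 2.4.6 and matplotlib 3.10.9.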

Additional observations from a re-analysis of the deposited data

How the results depend on the processing

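With a −log10 q of at least 5, promoter peaks in KO2 fell to 13 genes, those in all 3 libraries to 7 (without Itga6 and Itgb4), and Itga4 dropped out, leaving 0 genes with a peak in Msx2-KO alone. Gene body summits were then 24 in Msx2-WT, 13 in KO1 and 42 in KO2. With every deposited peak they were 159, 66 and 152, with 2 genes (Itga4 and Lamb1) in both Msx2-KO libraries alone and 1 (Lama2) in Msx2-WT alone. With lists of equal length KO2 had 12 genes with a promoter peak and 34 gene body summits, and Msx2-WT had 25. A window of 500 bases put 1 gene (Itga2) in Msx2-WT alone and left 9 genes with a promoter peak in all 3 libraries. Itga3 was not among them, since its KO1 summit lay 1215 bases from a start, so its density ratios rest on the longer windows. Without KO1 or KO2, one at a time, genes open in Msx2-KO but not Msx2-WT ranged from 1 to 6, those in Msx2-WT alone from 0 to 3 and promoters called higher from 0 to 2 (Itgb1 and Itgb8, without KO1). Gene body regions called lower then ranged from 1 to 3 and called higher from 2 to 4. Both gene body calls came to 0 with the fold over local background, and the lower call to 0 with a −log10 q of at least 5, settings chosen after seeing the data. The cause of these moves was not tested, beyond the fewer or more peaks that each limit keeps. The fold over local background also moved relative promoter densities across the median, in Lamb3 and Lama3 for KO1 and in Itga6 and Itgb4 for KO2. No promoter was called lower under any alternative run. No paired analysis was possible because 1 Msx2-WT library shares a number with only 1 Msx2-KO library and no test was run.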
